A study of Homo sapiens with 4 samples.

Results

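Kinesin motor genes were followed in MDA-MB-231Br cells, a breast cancer line selected for growth in the brain from MDA-MB-231, after lentiviral delivery of a short hairpin RNA against YTHDF3 or of a control hairpin. The members are the genes whose symbol in the platform annotation is KIF or KIFC followed by a digit, without pseudogenes and antisense transcripts, each represented by the probe set with the highest mean. Kinesins with other symbols are left out by this rule. Of the 14884 genes with a symbol it found 42. Of these, 39 reached the level at which genes were tested, among 12755 genes in all. There were 4 Affymetrix arrays, 2 of cells labelled shControl and 2 of cells labelled shYTHDF3, the knockdown. Both groups were grown in the same medium, transduced and selected with puromycin, so the controls carry a hairpin vector and the selection too. The labels do not say how many hairpin sequences were used, whether the lines were clones, or whether arrays of the same group stand for separate cultures, so the spread between arrays may be technical. The cell line field names MDA-MB-231Br, while the titles name MDA-MB-231. The level of YTHDF3 itself was not analysed here, so it gives no check of the labels.

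Kinesins are motor proteins that hydrolyse ATP to walk along microtubules or to take them apart at their ends. Some build the mitotic spindle, align chromosomes and complete cytokinesis, and their transcripts are made mainly in cells approaching division. Others carry vesicles, endosomes, mitochondria and RNA through the cytoplasm at all stages of the cell cycle, and a further set works in cilia or tunes microtubule growth. YTHDF3 is a cytoplasmic protein that reads N6-methyladenosine on messenger RNA. The 42 genes were divided by these roles into 15 mitotic, 15 cargo-transport and 12 other kinesins, and the question was whether the first and second classes differed between the groups in different ways.

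No kinesin passed the threshold. With limma, at an adjusted p under 0.05 over all genes tested, 0 of 39 kinesins were called, against a background of 0.753% of all genes (0.0862% higher and 0.666% lower), which is less than 1 gene in 39. At an unadjusted p under 0.05 limma gave 6 kinesins higher and 3 lower in the knockdown arrays, which is 23.1% of 39, against a background of 14.7% (6.24% higher and 8.48% lower). The knockdown arrays both lay above both control arrays for 17 kinesins, or 43.6%, against a background of 22.6%, and both lay below for 7, against a background of 22.8%. Log2 differences, given throughout as knockdown minus control, were positive for 28 of 39 kinesins, or 71.8%, against a background of 50.8%. They ran from -0.42 to 0.72 with a median of 0.13, beside 0.00 over all genes tested. The 95% interval of a kinesin's difference had a median half-width of 0.33 on the log2 scale, wider than most of the differences themselves. In bulk samples like these, fewer cells making a transcript and less RNA per cell cannot be told apart.

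**Figure D1:**
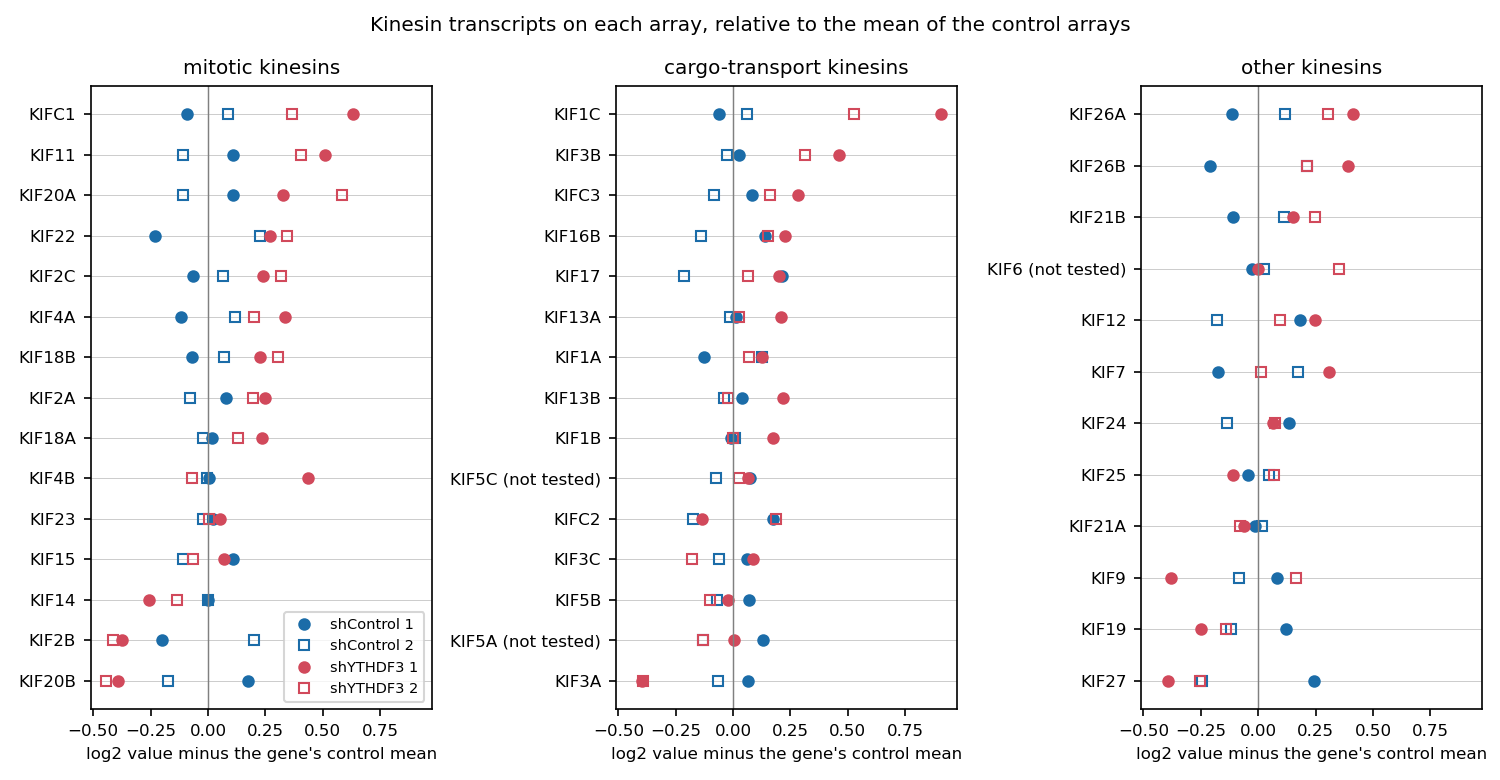
Log2 value of each of the 42 kinesins on each array, minus that gene's mean over the control arrays, by class, with genes ordered by their mean difference. Filled circles are replicate 1 and open squares replicate 2, blue for shControl and red for shYTHDF3. Both red points lie to the right of both blue points for KIFC1, KIF11, KIF20A, KIF1C and KIF3B and to the left for KIF20B, KIF2B and KIF3A.

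Among the mitotic kinesins all 15 were tested, 12 had a positive difference (80.0%, against 50.8% of all genes), and the class median was 0.22. At an unadjusted p under 0.05 limma gave 3 higher and 2 lower (33.3% in all, against 14.7% of all genes), and 0 of the 15 passed after adjustment. The knockdown arrays lay above the controls for 9 and below for 3, against 22.6% and 22.8% of all genes. Positive differences numbered 12 after median centring, but 11 after quantile normalization, where KIF23 turned negative, and 10 after cyclic loess, where KIF23 and KIF15, both close to 0, turned negative.

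The largest difference of the class was that of KIFC1, a minus-end-directed motor that bundles spindle microtubules and gathers extra centrosomes into bipolar spindles in cancer cells. KIFC1 stood at 7.21 and 7.39 in the control arrays and at 7.93 and 7.66 in the knockdown arrays. The groups did not overlap, and the log2 difference of 0.50 (SE 0.15, 1.41-fold) had an adjusted p of 0.20 with limma. Of the 3 further probe sets annotated to KIFC1, 1 held values identical to the chosen probe set on every array and is no separate measurement. The other 2 had differences of 0.44 and 0.33. The probe set with 0.33 had a mean of 3.50, near the array medians. It read 3.03 and 3.64 in control and 3.67 and 3.66 in knockdown arrays, so its difference rested on 1 control array.

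KIF11, the tetrameric motor that pushes the spindle poles apart and the target of a class of antimitotic inhibitors, read 9.88 and 9.67 in control arrays and 10.29 and 10.18 in knockdown arrays. These values do not overlap, and the difference was 0.46 (SE 0.14, 1.37-fold), with an adjusted p of 0.20 from limma. KIF20A, which carries the chromosomal passenger complex to the central spindle, read 8.65 and 8.44 against 8.87 and 9.13. Its difference was also 0.46 (SE 0.15, 1.37-fold), with an adjusted p of 0.24 from limma. When limma's prior variance was allowed to follow the intensity, KIF11 had an adjusted p of 0.047 from limma and passed, while KIFC1 and KIF20A had 0.076 and 0.085 and did not. Over all alternatives limma's adjusted p ran from 0.047 to 0.50 for KIF11, from 0.076 to 0.51 for KIFC1 and from 0.085 to 0.55 for KIF20A.

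KIF20B, a relative of KIF20A that acts late in cytokinesis, was on the opposite side, at 9.07 and 8.72 in the control arrays and 8.50 and 8.45 in the knockdown arrays. Both knockdown arrays were below both controls, although the controls were 0.35 apart, and the log2 difference was -0.42 (SE 0.16, adjusted p = 0.28 with limma). KIF2B, a microtubule depolymerase of early mitosis, stood at 3.59 and 3.99 against 3.41 and 3.37, a difference of -0.39 (SE 0.16, adjusted p = 0.33 with limma). These values lie near the array medians of 3.20 to 3.22, where RMA compresses weak signals. KIF14, which recruits citron kinase to the midbody, was the remaining negative member, at 8.69 on both control arrays and at 8.43 and 8.55 on the knockdown arrays, a difference of -0.20.

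The depolymerase KIF2C, which frees wrongly attached chromosomes at the centromere, had control values of 8.33 and 8.46 and knockdown values of 8.63 and 8.71. KIF18B, which shortens astral microtubules, read 7.15 and 7.30 against 7.45 and 7.53. KIF4A, a chromosome-bound motor that with PRC1 sets the length of the central spindle, read 7.99 and 8.23 against 8.44 and 8.31. In each of these the groups were separate, with differences of 0.28, 0.27 and 0.27 and adjusted p-values of 0.38, 0.40 and 0.44 from limma. KIF4B, a near-identical intronless copy of KIF4A whose probes may read KIF4A transcripts, had 7.43 and 7.42 against 7.86 and 7.36, so its groups overlapped and its difference of 0.18 came from 1 knockdown array. The chromokinesin KIF22, the spindle-pole depolymerase KIF2A and KIF18A, which damps chromosome oscillations, had separate groups with differences of 0.31, 0.22 and 0.18. KIF22 read 7.60 and 8.06 in control and 8.10 and 8.18 in knockdown arrays, so its separation was narrow and its control arrays differed widely. KIF23, the motor of centralspindlin, and KIF15, which can stand in for KIF11, differed by 0.03 and 0.00 with overlapping arrays.

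The sequences before the start sites of 4 members are shown because CCAAT boxes and the cell cycle homology region (TTTGAA) are known from promoters of genes used in G2 and mitosis, and because these 4 had the largest positive differences of their classes. Each line gives the 250 bases before the RefSeq start, 5′ to 3′ on the gene's strand (build GRCh38.p14), in lower case, with matches to CCAAT or TTTGAA on either strand in capitals (ATTGG and TTCAAA on the reverse strand). KIF11 lies at chr10:92592880-92593129, KIFC1 at chr6:33391573-33391822, KIF20A at chr5:138178862-138179111 and KIF1C, a cargo motor shown for contrast, at chr17:4997700-4997949, all on the plus strand.
KIF11: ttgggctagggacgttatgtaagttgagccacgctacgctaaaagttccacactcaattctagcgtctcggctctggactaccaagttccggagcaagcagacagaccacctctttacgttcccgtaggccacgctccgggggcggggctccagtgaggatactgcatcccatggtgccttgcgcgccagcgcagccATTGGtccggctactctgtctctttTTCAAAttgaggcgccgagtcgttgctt
KIFC1: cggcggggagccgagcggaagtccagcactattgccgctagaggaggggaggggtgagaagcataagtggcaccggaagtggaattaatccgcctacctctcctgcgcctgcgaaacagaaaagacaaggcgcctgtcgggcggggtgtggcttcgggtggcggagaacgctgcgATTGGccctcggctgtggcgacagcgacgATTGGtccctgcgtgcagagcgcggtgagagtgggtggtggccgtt
KIF20A: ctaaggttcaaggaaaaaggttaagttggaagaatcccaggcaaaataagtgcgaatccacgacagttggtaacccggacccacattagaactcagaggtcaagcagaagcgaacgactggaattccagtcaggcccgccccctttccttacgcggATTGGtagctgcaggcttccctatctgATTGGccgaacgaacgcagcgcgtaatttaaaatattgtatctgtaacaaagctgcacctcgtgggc
KIF1C: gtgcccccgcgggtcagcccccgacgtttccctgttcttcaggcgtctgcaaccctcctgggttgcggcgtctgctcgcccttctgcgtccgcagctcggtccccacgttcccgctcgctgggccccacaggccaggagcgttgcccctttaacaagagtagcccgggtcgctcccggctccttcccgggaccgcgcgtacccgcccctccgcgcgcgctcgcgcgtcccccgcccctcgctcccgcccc

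In KIF11 a reverse CCAAT began 53 bases and a reverse TTTGAA 28 bases before the start. KIFC1 and KIF20A each held a pair of reverse CCAAT matches, which began 75 and 46 bases before the start in KIFC1 and 94 and 67 bases before it in KIF20A. KIF1C held neither motif in this window. Of the 42 kinesins 34 were in the RefSeq promoter table. The 8 without an entry were KIF13B, KIF19, KIF21B, KIF26B, KIF27, KIF5A, KIFC2 and KIFC3. Counting a gene when any listed start had a match, CCAAT was found in 11 of 15 mitotic kinesins (73.3%), 4 of 11 cargo-transport kinesins (36.4%) and 3 of 8 others (37.5%), against 37.0% of all 27305 genes in that table. The match of KIF4B nearer its start lies in a stretch that closely resembles the window of KIF4A, of which it is a copy. KIF4A and KIF4B are thus not independent in this count. TTTGAA was found in 5 of 15 mitotic kinesins (33.3%), 1 of 11 cargo-transport kinesins and 0 of 8 others, against 16.1% of all genes. Members with a match lay on both sides of 0 in their expression difference. Of the mitotic kinesins with CCAAT, KIF11, KIFC1, KIF20A, KIF22, KIF4A, KIF18B, KIF18A, KIF4B and KIF23 had positive differences. KIF20B, with 2 CCAAT matches, and KIF14, with 1, had negative differences. Neither motif was found in KIF2C and KIF2A, with positive differences, or in KIF2B, with a negative one. KIF15, close to 0, held TTTGAA without CCAAT. A match is a run of letters and was not tested as a binding site.

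Of the 15 cargo-transport kinesins 13 were tested, 10 with a positive difference (76.9%, against 50.8% of all genes), and the class median was 0.10. Limma gave 2 higher and 1 lower at an unadjusted p under 0.05 (23.1% in all, against 14.7% of all genes) and 0 after adjustment. The knockdown arrays lay above the controls for 5 members and below for 1, against 22.6% and 22.8% of all genes. KIF5A and KIF5C, heavy chains of conventional kinesin found mainly in neurons, had means of 2.36 and 2.32 on the log2 scale, below the level for testing.

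KIF1C, which carries dense-core vesicles and recycling integrins, had the largest difference and the smallest p of the 39 kinesins. It stood at 7.43 and 7.55 in the control arrays and at 8.39 and 8.02 in the knockdown arrays. Both knockdown arrays exceeded both controls by more than the controls differed from each other. The difference was 0.72 (SE 0.16, 1.65-fold, 95% interval 0.34 to 1.10), and the adjusted p from limma was 0.12. With the intensity trend named above the adjusted p from limma was 0.027, and KIF1C and KIF11 were then the 2 kinesins of 39 called (5.13%, both higher), against a background of 2.94% of all genes, of which 0.808% were higher. When 1 array was left out, the difference of KIF1C ran from 0.53 to 0.91, and over all alternatives its adjusted p from limma ran from 0.027 to 0.43.

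KIF3A and KIF3B, the motor subunits that pair with each other and with the adaptor KIFAP3 to carry vesicles and ciliary cargo, had differences of opposite sign. KIF3A read 6.96 and 6.83 in control and 6.50 and 6.50 in knockdown arrays, a difference of -0.39 (SE 0.13, adjusted p = 0.23 with limma). KIF3B read 7.30 and 7.25 against 7.73 and 7.59, a difference of 0.39 (SE 0.13, adjusted p = 0.24 with limma). Neither subunit's groups overlapped, and neither passed.

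The log2 value of KIF3B minus that of KIF3A, which carries a fixed probe offset and is comparable only between arrays, was 0.34 and 0.42 in control and 1.24 and 1.09 in knockdown arrays. This gap was thus wider on both knockdown arrays, by 0.78 on average, or 1.72-fold. The exact two-sided permutation test gave p = 0.333, the smallest that 2 arrays against 2 allow, and the pair was chosen after its values were seen. KIFAP3 read 8.22 and 8.21 in control and 8.22 and 8.03 in knockdown arrays, a difference of -0.09 (95% interval -0.40 to 0.23). KIF3C, an alternative partner of KIF3A, differed by -0.05 with overlapping groups. For KIF20A minus KIF20B, likewise chosen after its values were seen, the gap was -0.41 and -0.28 in control and 0.37 and 0.68 in knockdown arrays, a shift of 0.87 with the same smallest p of 0.333 in the exact permutation test.

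**Figure D2:**
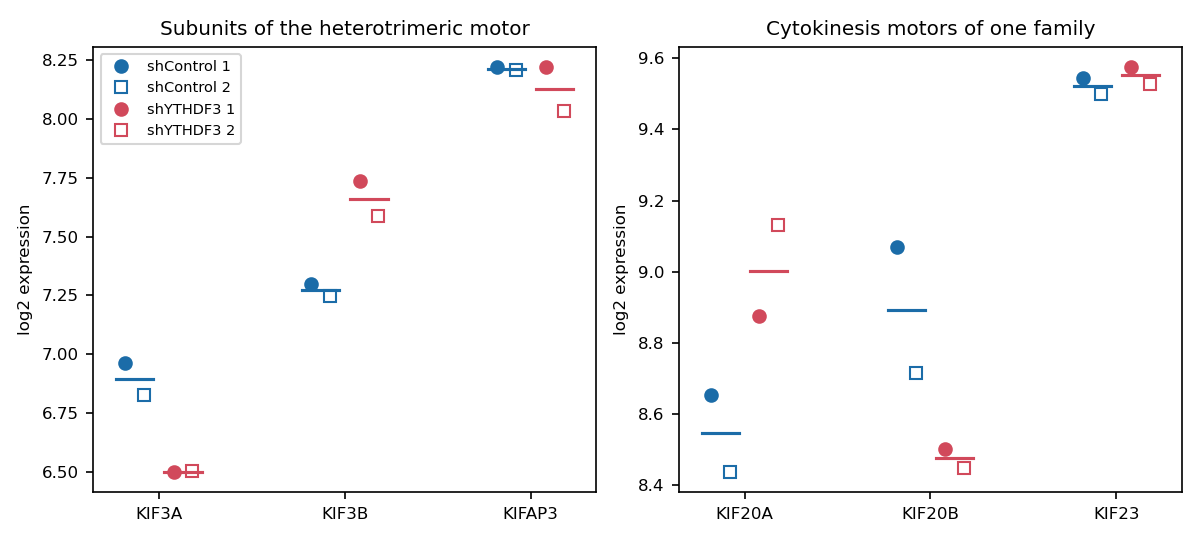
Log2 expression on each array for the subunits KIF3A, KIF3B and KIFAP3 (left) and for the cytokinesis motors KIF20A, KIF20B and KIF23 (right). Filled circles are replicate 1, open squares replicate 2 and short lines the group means, blue for shControl and red for shYTHDF3. KIF3A and KIF20B are lower and KIF3B and KIF20A higher on both red arrays, while KIF23 overlaps. The heights of different genes are not comparable, since each probe set has its own scale.

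KIFC3, a minus-end-directed motor at epithelial junctions, stood at 5.47 and 5.30 against 5.67 and 5.54. The early endosome motor KIF16B read 6.39 and 6.11 against 6.48 and 6.40, and KIF13A, which moves recycling endosomes, read 6.68 and 6.65 against 6.88 and 6.69. Their groups were separate by small margins, with differences of 0.22, 0.19 and 0.12 and adjusted p-values of 0.50, 0.60 and 0.75 from limma. KIF5B, the ubiquitous heavy chain of conventional kinesin, read 10.68 and 10.54 against 10.59 and 10.51, a difference of -0.06 (95% interval -0.37 to 0.25). KIF1A, the neuronal carrier of synaptic vesicle precursors, read 3.44 and 3.70 against 3.70 and 3.64, near the array medians. The remaining tested members, KIF17, KIF13B, KIF1B and KIFC2, had overlapping groups and differences of 0.13, 0.10, 0.09 and 0.03. A second probe set of KIF1B differed by -0.01.

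The 12 other kinesins include motors of cilia and regulators of microtubule growth, and 11 were tested. Differences were positive for 6 (54.5%, against 50.8% of all genes), and the median was 0.07. The knockdown arrays lay above the controls for 3 members and below for 3, against 22.6% and 22.8% of all genes. With limma 0 passed after adjustment, and 1 was higher at an unadjusted p under 0.05 (9.09%, against 14.7% of all genes). That member was KIF26A, a family member without ATPase activity that acts in growth factor signalling, at 4.23 and 4.46 in control and 4.76 and 4.65 in knockdown arrays. Its difference was 0.36 (SE 0.14, adjusted p = 0.31 with limma). Its relative KIF26B read 2.93 and 3.35 against 3.53 and 3.36, where 1 control and 1 knockdown array nearly coincide.

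KIF27, a motor linked to motile cilia, had the lowest difference of these, -0.33, from control values of 6.76 and 6.27 and knockdown values of 6.12 and 6.26. The second control array and the second knockdown array were 0.01 apart, so that difference rested on the other control array, and without shControl replicate 1 it was -0.080. Another probe set of KIF27, below the level for testing, differed by 0.47, and a further one, also below that level, by -0.06. The probe sets of this gene thus disagreed in sign. The mean of its probe sets differed by 0.03. KIF24, which restrains cilium formation, and KIF7, a ciliary regulator of Hedgehog signalling, differed by 0.07 and 0.16 with overlapping groups. KIF21A and KIF21B, which limit microtubule growth, differed by -0.07 and 0.20. The differences of KIF12, KIF19, KIF9 and KIF25 lay between -0.20 and 0.17. KIF25 had a mean of 2.56, close to the filter at 2.54, and KIF6, with a mean of 2.27, was not tested.

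**Figure D3:**
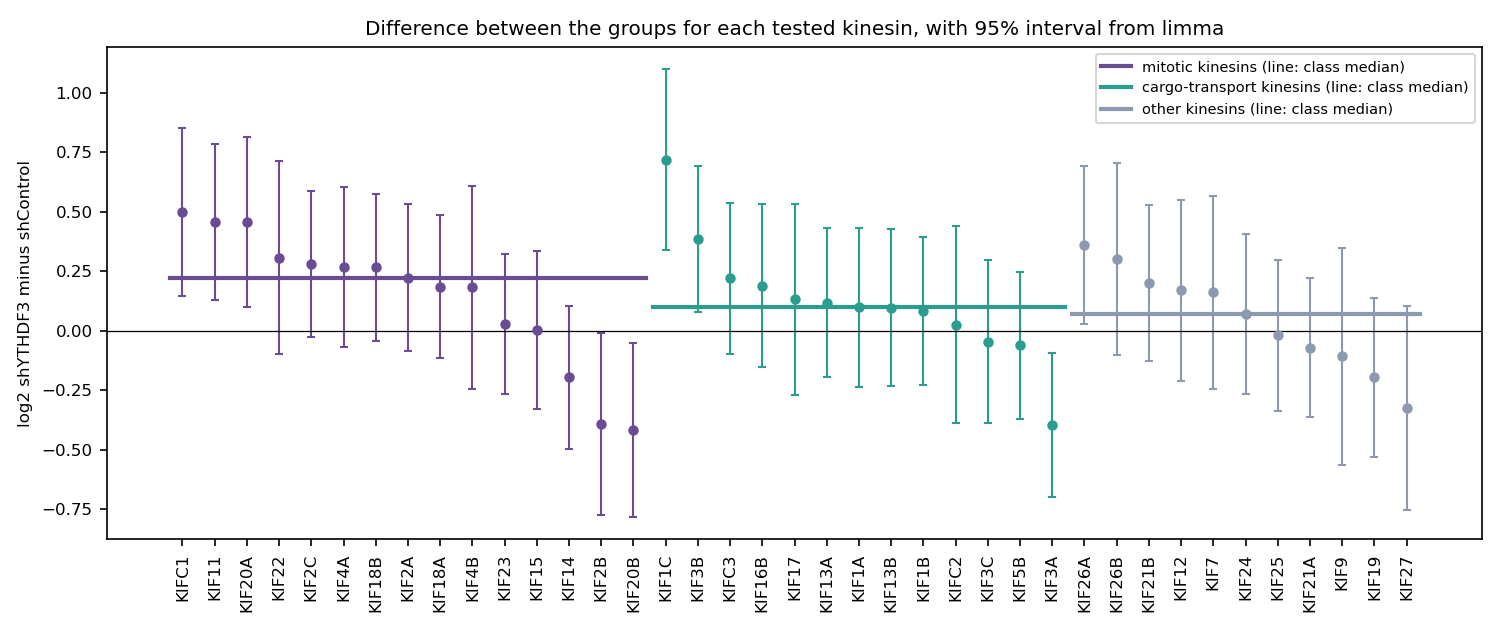
Difference between the groups for each of the 39 tested kinesins (log2 shYTHDF3 minus shControl, points) with its 95% interval from limma (bars), coloured by class and ordered by size within each class. Horizontal lines are the class medians of 0.22, 0.10 and 0.07. The intervals of 9 members exclude 0 before adjustment, 6 above it and 3 below it.

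Set against each other, the mitotic and cargo-transport classes had medians of 0.22 and 0.10, a gap of 0.12. A gap was also taken on each array, from class medians of values minus each gene's mean over all arrays. Its within-group SD was 0.07, with n = 2 per group. That per-array gap is another quantity than the 0.12, so the SD is not its standard error. The class means were 0.14 and 0.12, a gap of 0.02. KIF20B and KIF2B pull the mitotic mean down and KIF1C pulls the cargo mean up. Relative to the control means, the mitotic median was 0.24 and 0.20 on the knockdown arrays, whereas the cargo median was 0.20 and 0.06. In the 4 pairings of a knockdown with a control array, which share arrays, the mitotic median ran from 0.12 to 0.22 with 9 to 12 of 15 members positive, and the cargo median from 0.01 to 0.22 with 8 to 12 of 13 positive. The order of the classes turned in 1 of these pairings, shYTHDF3 replicate 1 with shControl replicate 2, where the cargo median was 0.22 and the mitotic median 0.18. Between the control arrays themselves, replicate 2 minus replicate 1 had a median of -0.12 over the cargo class and -0.0060 over the mitotic class. Between the knockdown arrays the same medians were -0.13 and -0.051, so the cargo class was lower on replicate 2 in both groups.

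Without shYTHDF3 replicate 2 the gap was 0.04, and without shControl replicate 1 it was 0.05. The mitotic median stayed between 0.18 and 0.24 when 1 array was left out, and the cargo median between 0.06 and 0.20. Members of a class share their arrays and are not replicates, and no test was made of the gap. The classes also differed in signal level. The median level of tested members was 8.24 for mitotic, 6.52 for cargo-transport and 3.71 for other kinesins, beside 4.97 over all genes tested. Whether signal level had a part in the gap was not tested.

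**Figure D4:**
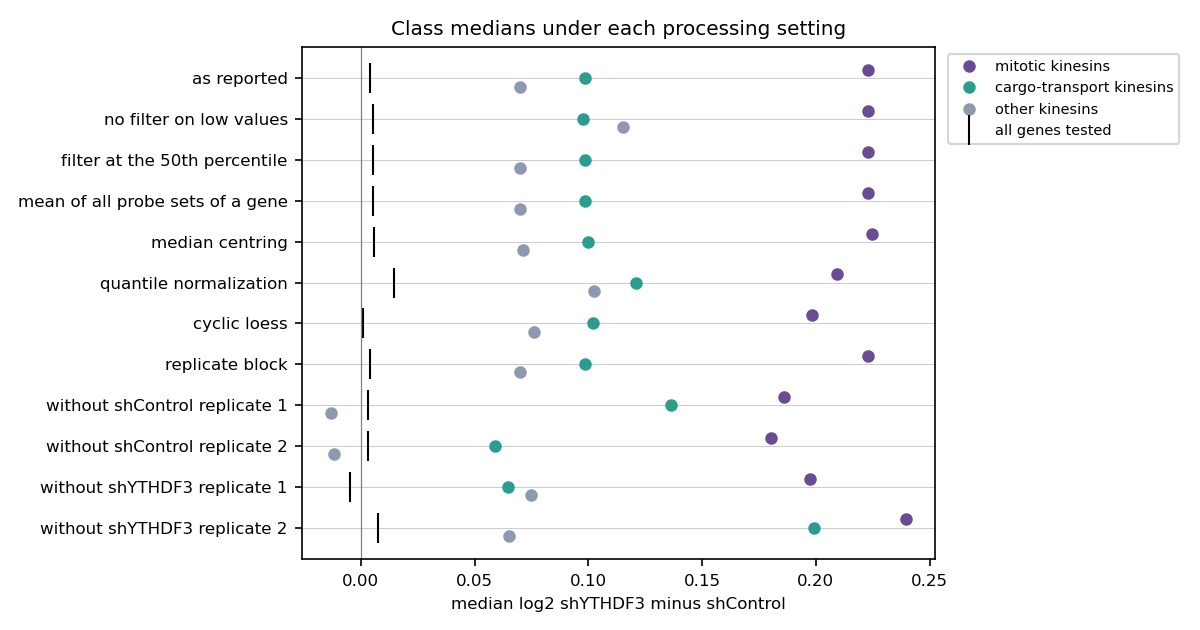
Median log2 difference of each kinesin class (points) and of all genes tested (vertical marks), as reported and under alternatives. Drawn are the alternatives of filter, probe-set combination, normalization, replicate block and left-out array. Those of class membership, mean in place of median, prior variance and threshold are not drawn. The mitotic median lies highest under every setting drawn, and the cargo median approaches it without shYTHDF3 replicate 2. The median of the other kinesins is just below 0 when either control array is left out.

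The genes that work with these motors were described from lists, to be read against the 14.7% of all genes with an unadjusted p under 0.05 and the 50.8% with a positive difference. Of 17 tested spindle and cytokinesis partners of the mitotic kinesins, limma called 0, with 4 higher and 0 lower at an unadjusted p under 0.05. A positive difference was found for 14 (82.4%, median 0.19). These 17 include STARD9, itself a kinesin under another symbol, with a difference of 0.19. INCENP and CDCA8, subunits of the chromosomal passenger complex that KIF20A carries, had differences of 0.56 and 0.46. The subunits BIRC5 and AURKB, also tested, had 0.30 and 0.06. INCENP read 7.10 and 7.22 in control and 7.71 and 7.74 in knockdown arrays, with an adjusted p of 0.12 from limma. RACGAP1, the partner of KIF23, had a difference of 0.59 at a mean of 2.99, where weak signals are compressed. Of 15 tested kinesin light chains, adaptors and cargo linkers, limma called 0, 0 had an unadjusted p under 0.05, and 6 were positive (40.0%, median -0.02). The members of smallest p were KIFBP, which binds and restrains several kinesin motor domains, the light chain KLC3 and the mitochondrial linker RHOT1, with log2 differences of 0.24, -0.32 and -0.27. For dynein, the motor that moves cargo the opposite way, the 11 tested genes were of dynactin and adaptors. No dynein subunit was among them, so the motor itself was not examined. Of these 11 limma called 0, with 1 higher at an unadjusted p under 0.05, and 5 were positive (45.5%, median -0.10). That gene was the adaptor BICD2, at 6.75 and 6.86 against 7.29 and 7.28, a difference of 0.49 (adjusted p = 0.16, limma). DCTN5 and NDEL1 stood at 0.36 and -0.25. Listed genes outside these counts were not analysed here.

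Over all 12755 genes limma called 96, of which 11 were higher and 85 lower in the knockdown arrays. Of the 6 tested mesenchymal markers, MSN, ANXA1, AXL, VIM and CD44 had means over the 4 arrays of 12.37, 11.20, 11.19, 9.87 and 8.20, and S100A4 had 3.22, at the array medians. The luminal markers KRT18, EPCAM, FOXA1, GATA3 and KRT8 had means of 8.71, 6.70, 5.04, 4.62 and 4.25, and the hormone receptors ESR1 and PGR had 2.87 and 2.67, near the filter. Of 6 tested mesenchymal, 7 luminal, 2 leukocyte, 2 stromal or endothelial and 3 neural markers limma called 0, with 1 luminal marker (KRT18, 0.50) higher and 1 endothelial marker (VWF, -0.34, at a mean of 2.91) lower at an unadjusted p under 0.05. Of the leukocyte markers CD68 had a mean of 10.57, above that of VIM, and CD14 had 2.81. The neural markers MBP, SYP and GFAP had means of 5.80, 4.91 and 3.19, and the endothelial marker PECAM1 had 2.56. The part of all these markers in the kinesin values was not tested.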

How the data were processed

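Expression was measured on 4 Affymetrix arrays. The authors deposited log2 values, 1 per probe set and array, and the submitters' processing notes name RMA, which removes background, puts the arrays on a common distribution and combines the probes of a set. RMA version, settings and genome build were not given in the sources used here. Medians of the arrays lay between 3.20 and 3.22. Precision is limited by there being 4 arrays.

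The platform annotation gave 1 symbol to 16098 of the 53617 probe sets, several to 0 and none to 37519. Symbols were checked against RefSeq by Entrez identifier, which changed 0. The probe set of highest mean stood for its gene, and a gene was tested if this mean was at least 2.54, the 30th percentile over the table. The test was limma's moderated comparison of the groups (limma 3.58.1, R 4.3.3, lmFit then eBayes, 2-sided, no covariates). It was adjusted by Benjamini-Hochberg over all genes tested at a threshold of 0.05. Residual degrees of freedom were 2 per gene, with 5.30 from the prior. The limma step was also run on simulated data with added differences larger than that of any kinesin. That run does not show how well differences of the size seen here are found.

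All members are accounted for. Values per array are given by rule for the 8 mitotic, 6 cargo-transport and 3 other members of smallest p. They are also given for the tested members of lowest and highest level in each class, except KIF25, given as a mean. KIF5C and KIF6, lower still in their classes and not tested, are given as means too. Up to 3 genes of smallest p are named from each list of partners, not all with values per array. Values per array of KIF14, KIF22, KIF4B and KIFAP3 were added after they were seen, as were the differences of BIRC5, AURKB and STARD9. Motifs were searched in RefSeq promoters (GRCh38.p14). Members, classes and lists were chosen with earlier results of these data known. Alternatives changed the filter, how probe sets were combined, the normalization, the prior variance, the threshold, class membership and the replicate block, or left out each array.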

Additional observations from a re-analysis of the deposited data

How the results depend on the processing

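Limma called 0 kinesins under every alternative run apart from the intensity trend, with 2, and the unadjusted threshold, with 9. Over all genes the count was 96, against 167 with the filter at the 50th percentile, 375 with an intensity trend, 250 at an adjusted p under 0.10 and 1878 at an unadjusted p under 0.05. It ran from 0 to 36 when 1 array was left out, at 0 without either control array. The labels give no batch or day shared by equal replicate numbers. With the replicate block limma called 11 of all genes and 0 kinesins, and deviations of same-numbered arrays correlated at 0.04.

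The mitotic median of 0.22 was 0.20 with cyclic loess, 0.27 without KIF2A, KIF14 and KIF20B and 0.14 as a mean, and ran from 0.18 to 0.24 when 1 array was left out. The cargo median ran from 0.059 to 0.20 when 1 array was left out. The gap between them, 0.12, was 0.023 between means and ran from 0.041 to 0.13 when 1 array was left out. The median of the other kinesins, 0.07, was 0.12 with no filter and 0.10 with quantile normalization, and ran from -0.013 to 0.075 when 1 array was left out. The causes of these shifts were not tested.

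Of 583 comparisons of single kinesins with an alternative, 22 turned in sign. Many of the 583 could not turn, since changes of filter, prior variance, threshold or replicate block leave each difference as it was. Turns were possible only where probe sets were averaged, the normalization changed or an array was left out. KIF27 was 0.028 as the mean of its probe sets, KIF23 -0.013 with quantile normalization and -0.0036 with cyclic loess, and KIF15 -0.0018 with cyclic loess. When 1 array was left out, KIF12 ran from -0.012 to 0.35, KIF13B from -0.022 to 0.22, KIF15 from -0.11 to 0.11, KIF17 from -0.082 to 0.35, KIF1A from -0.028 to 0.22, KIF1B from -0.0017 to 0.17, KIF24 from -0.065 to 0.20 and KIF25 from -0.11 to 0.070. Likewise KIF3C ran from -0.18 to 0.085, KIF4B from -0.071 to 0.44, KIF5B from -0.13 to 0.0089, KIF7 from -0.013 to 0.34, KIF9 from -0.38 to 0.17 and KIFC2 from -0.15 to 0.20. With 1 array left out a group of 1 is assumed to vary like the other.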
